A study of Mus musculus with 6 samples.

Results

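The Tim receptors are a small family of cell surface proteins, and the 4 family genes analysed here were Havcr1 (Tim-1, known in the kidney as Kim1), Havcr2 (Tim-3), Timd2 (Tim-2) and Timd4 (Tim-4). They were chosen by gene symbol, 1 table entry each, from the 40993 genes of an RNA sequencing table of whole mouse kidney. All 6 samples came from C57BL/6 mice aged 2 months, 3 on a standard diet (standard 1 to 3) and 3 on an adenine-enriched diet (adenine 1 to 3), with no other treatment or allele named. How long the diet was fed is not given in the sources used here, nor whether each sample is its own animal, and the p-values therefore reflect only how far these samples vary, which may be technical. Excess adenine is turned into a poorly soluble product that injures tubules, and adenine feeding is a common rodent model of kidney disease.

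Tim proteins carry an immunoglobulin-like domain on a mucin stalk, and several of them bind phosphatidylserine, a lipid that dying cells expose on their surface. Kim1 is made by injured proximal tubule cells, lets them take up dying cells and debris, and is shed into urine, where it serves as a marker of kidney injury. Tim-3 restrains T cells and is also found on macrophages and dendritic cells, Tim-4 is a phosphatidylserine receptor of resident macrophages, and Tim-2, a gene of mice with no human counterpart, binds the ferritin heavy chain and Sema4A.

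All 4 genes lie in 1 stretch of chromosome 11 (GRCm38 coordinates as deposited). Havcr2 spans 46454935 to 46481255, Timd2 (on the minus strand) 46668960 to 46707061, Havcr1 46735080 to 46779578 and Timd4 46810800 to 46844332. The RefSeq promoter table (GRCm38.p6) holds windows of 300 bases, 250 of them before the start site, for all 4 genes, 3 for Havcr1, 2 for Timd2 and 1 each for Havcr2 and Timd4. Shown here are the bases before the 2 Havcr1 start sites that RefSeq and GENCODE release M21 place at the same base (46750511 and 46751168) and before the Havcr2 start site, because these genes differed by diet. Sequences run 5′ to 3′ on the plus strand, without annotated exon bases, and capitals mark a match to 1 of 3 motifs.
Havcr1, chr11:46750261-46750510: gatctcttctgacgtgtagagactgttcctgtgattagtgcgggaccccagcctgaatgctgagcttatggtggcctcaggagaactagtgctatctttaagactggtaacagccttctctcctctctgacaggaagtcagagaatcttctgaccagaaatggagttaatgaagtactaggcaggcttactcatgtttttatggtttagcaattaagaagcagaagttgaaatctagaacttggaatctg
Havcr1, chr11:46750918-46751167: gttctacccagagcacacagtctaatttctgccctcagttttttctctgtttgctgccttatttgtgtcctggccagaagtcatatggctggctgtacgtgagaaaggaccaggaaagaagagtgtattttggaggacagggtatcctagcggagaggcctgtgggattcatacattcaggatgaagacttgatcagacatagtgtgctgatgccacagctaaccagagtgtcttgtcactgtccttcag
Havcr2, chr11:46454681-46454930: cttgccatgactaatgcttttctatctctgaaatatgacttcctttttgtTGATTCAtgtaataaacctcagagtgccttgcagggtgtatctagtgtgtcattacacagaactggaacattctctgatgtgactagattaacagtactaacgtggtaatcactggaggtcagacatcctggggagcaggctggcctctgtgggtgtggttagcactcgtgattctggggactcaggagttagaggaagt
The motifs were TTCNNNGAA (STAT factors), TGANTCA (AP-1) and AACAAT (SOX factors), searched on both strands of the whole windows, and no matches overlapped. The Havcr2 window held 1 AP-1 match, 200 bases before the start site, and the Havcr1 window at 46751168 held 1 that begins 10 bases after it, outside the bases shown. No STAT or SOX match was found in any window of the 4 genes, and none of the 3 motifs was found in the Timd2 and Timd4 windows. Of 32851 such windows in the table, 8.3% held the STAT, 7.81% the AP-1 and 10.7% the SOX motif, so a match is a description of these letters and not a site.

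Levels are FPKM (fragments per length of transcript and number of mapped fragments), a scale per length on which genes can be compared, and every ± is an SD over 3 samples. Depth, estimated from the steps of low values, was 17.2 to 23.5 M fragments per library. The whole comparison was broad: by limma on log2(FPKM + 1) with Benjamini-Hochberg adjustment (threshold 0.05), 36.5% of 15431 tested genes changed, 29.7% upward and 6.84% downward. The adenine libraries lay above all standard libraries in 44.4% of tested genes and below them in 11.8%. The median tested gene was 0.25 log2 units higher in the adenine group. After median-of-ratios scaling, which takes that shift out, 16.8% rose and 15.2% fell. The counts of risen and fallen genes in each list below are to be read beside these shares. Leaving out standard 1, 2 or 3 gave 2794, 2866 or 2752 calls in place of 5637, and leaving out adenine 1, 2 or 3 gave 3635, 2053 or 7078. The kidney segment markers Nphs1, Umod, Slc12a1, Slc12a3 and Aqp2 were present in all libraries, with a summed level of 3305 to 3595 FPKM on the standard and 3470 to 4234 FPKM on the adenine diet. The podocyte gene Nphs1 rose and Slc12a1 fell, but neither was called under quantile normalization (limma adjusted p = 0.138 and 0.0695), nor Slc12a1 without any 1 library except adenine 3 (0.0517 to 0.0918). Of 6 markers of adrenal gland, fat and muscle 3 were tested and none was called by limma (0 at an unadjusted p under 0.05). The fat markers were uneven within each diet, which a comparison by diet does not test. Adipoq was at 2.23, 3.03 and 0 FPKM in standard 1 to 3 and 2.39, 4.1 and 0 FPKM in adenine 1 to 3. Plin1 was at 0.795, 1.8 and 0.03 FPKM and at 1.32, 3.71 and 0 FPKM.

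Havcr1 and Havcr2 rose on the adenine-enriched diet, Timd2 did not pass the test, and Timd4 was at the edge of detection. Of the 4 members, 3 passed the filter of a mean of 0.5 FPKM. Havcr2, whose standard mean lay under that level, passed through its adenine values, so the count of members called supports nothing by itself.

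**Figure D1:**
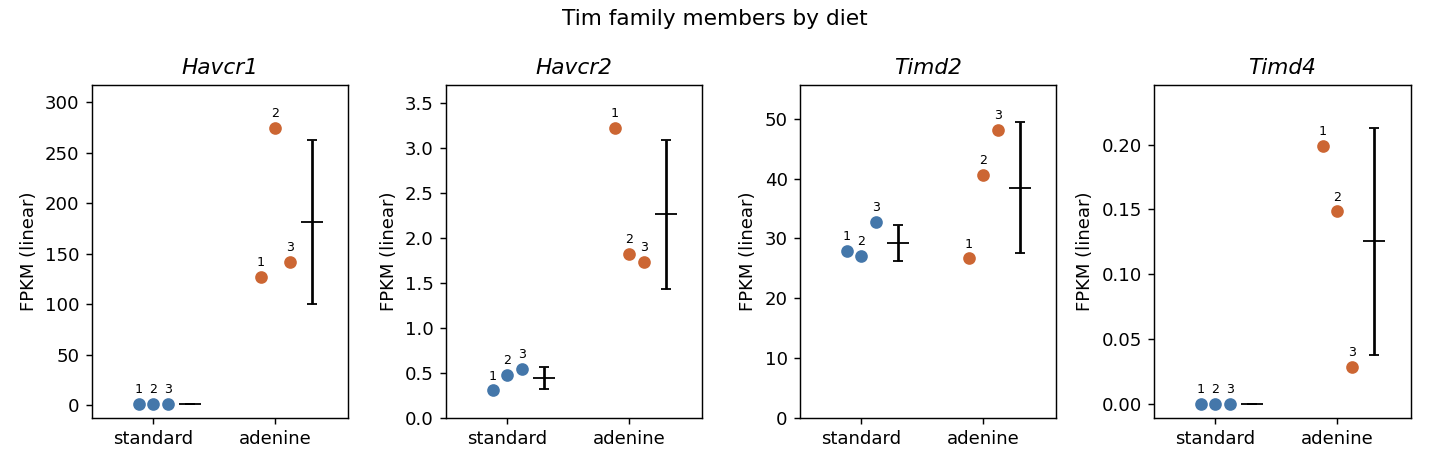
FPKM of each Tim gene (linear axes, 1 scale per gene) in the 3 standard (blue) and 3 adenine (orange) libraries, numbered by replicate, with the mean and SD as a bar. Havcr1 and Havcr2 groups are apart, Timd2 groups overlap, and Timd4 is listed at 0 on the standard diet.

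Havcr1, the injury receptor of the tubule (ENSMUSG00000040405), was at 1.36, 1.42 and 1.45 FPKM in standard 1 to 3, against 127, 275 and 142 FPKM in adenine 1 to 3. The standard libraries were nearly equal, while adenine 2 was well above the other adenine libraries, and the groups did not overlap. The mean rose from 1.41 ± 0.0476 to 181 ± 81.2 FPKM, a 129-fold difference. The log2 change was 6.15 ± 0.279 (SE; limma adjusted p = 0.000798), higher in 3 of 3 adenine libraries, and 5.91 after median-of-ratios scaling (limma adjusted p = 0.00215). With any 1 library left out the log2 change lay between 5.81 and 6.36 and the limma adjusted p between 0.000251 and 0.0243. By level, Havcr1 stood at rank 12799, 12580 and 12251 among 34271 genes of at least 300 bp in the standard libraries and at rank 601, 222 and 575 in the adenine libraries. A rank does not move with the scaling of a library, so it shows the same step.

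Timd2, the ferritin and Sema4A receptor (ENSMUSG00000040413), was the most abundant family member on the standard diet, at 28, 27.1 and 32.8 FPKM. On the adenine diet it was at 26.7, 40.7 and 48.2 FPKM. Adenine 1 lay below every standard library and the other adenine libraries lay above them, so the groups overlapped, with means of 29.3 ± 3.03 and 38.5 ± 11 FPKM. The log2 change of 0.35 ± 0.214 (SE) was not called (limma adjusted p = 0.232) and was 0.06 after median-of-ratios scaling (limma adjusted p = 0.881). Without adenine 1 it was 0.59 and was called (limma adjusted p = 0.0287), so that library decides the call. Timd2 and Havcr1 resemble each other, and reads from a shared stretch could be assigned to either. Of the 100-base stretches of Timd2 transcripts in GENCODE M21, 0.461% also occur in Havcr1, and of the 25-base stretches 4.84%. In the other direction, 0.694% of the 100-base and 7.29% of the 25-base stretches of Havcr1 also occur in Timd2. No 25-base stretch was shared between any other members. The highest Havcr1 value (adenine 2) and the highest Timd2 value (adenine 3) came from different libraries. That order does not tell how shared reads were assigned, and their part in either value was not tested.

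Havcr2, the inhibitory receptor Tim-3 (ENSMUSG00000020399), was at 0.303, 0.473 and 0.541 FPKM in standard 1 to 3, against 3.22, 1.82 and 1.73 FPKM in adenine 1 to 3. Adenine 1 was the highest, and every adenine library was above every standard library. The mean rose from 0.439 ± 0.123 to 2.26 ± 0.831 FPKM, a 5.15-fold difference, with a log2 change on the log2(FPKM + 1) scale of 1.15 ± 0.206 (SE; limma adjusted p = 0.0103). Leaving out 1 library gave limma adjusted p between 0.00866 and 0.0414, and median-of-ratios scaling and quantile normalization gave 0.0124 and 0.0254. The size depended on the scale, with a log2 change of 0.70 after quantile normalization and of 1.52 and 2.1 with pseudocounts of 0.5 and 0.1.

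Timd4, the phosphatidylserine receptor of resident macrophages (ENSMUSG00000055546), was listed at 0 in standard 1 to 3 and at 0.199, 0.148 and 0.0285 FPKM in adenine 1 to 3. From the estimated depths and its single annotated transcript of 2173 bp, these values correspond to about 9, 6.88 and 0.98 fragments. All 3 adenine libraries thus held a signal, and that of adenine 3 rested on about 1 fragment. A level corresponding to 3 fragments would be 0.0747 to 0.0885 FPKM in the standard libraries, so a value of 0 there leaves room for levels up to about these limits. The adenine 3 value of 0.0285 FPKM lies under them and cannot be told from the standard values. These limits cover counting error only. Under the filter Timd4 was not tested. In the fit without a filter, where 21.9% of 22768 genes were called, its log2 change was 0.17 ± 0.0594 (SE; limma adjusted p = 0.0944). Without adenine 3 that fit called it (limma adjusted p = 0.0109).

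Within the family, the make-up turned from Timd2 to Havcr1. Timd2 gave 94.4%, 93.5% and 94.3% of the summed FPKM of the 4 genes in standard 1 to 3, and 16.9%, 12.8% and 25.1% in adenine 1 to 3. Havcr1 went from 4.18% to 4.9% of the sum on the standard diet to 74% to 86.6% on the adenine diet. Havcr2 contributed 0.575% to 2.04% over all libraries and Timd4 at most 0.127%. The summed level was 31.1 ± 3.14 FPKM on the standard and 222 ± 84.2 FPKM on the adenine diet. Per 1000 FPKM of Timd2, Havcr1 had 48.6, 52.4 and 44.3 FPKM in standard 1 to 3 and 4778, 6755 and 2946 FPKM in adenine 1 to 3, a 94.4-fold difference of geometric means. This was 1 of 12 ratios within libraries, each compared by a two-sided exact permutation test, which with 3 against 3 samples cannot go below p = 0.1. The exact p was 0.1 here and 0.15 after Benjamini-Hochberg adjustment, as for every ratio below whose groups did not overlap.

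**Figure D2:**
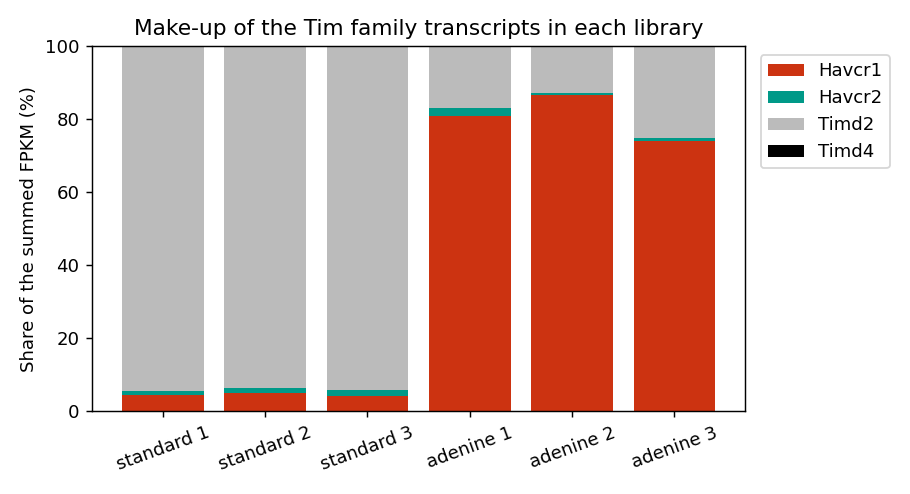
Share of the summed FPKM of the 4 Tim genes (percent, stacked bars) in each library. Timd2 (grey) makes up 93.5% to 94.4% in the standard libraries and 12.8% to 25.1% in the adenine libraries, where Havcr1 (red) makes up most of the rest.

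Havcr1 was set beside the tubule cells that carry it and other genes of injured tubules. Over all tested genes 29.7% rose and 6.84% fell. Of 18 proximal tubule identity genes 9 fell and none rose (median log2 change -0.77, against 0.25 over all tested genes; 10 fell after median-of-ratios scaling). The largest falls were those of the phosphate transporter Slc34a3, from 15.7 ± 5.49 to 3.78 ± 1.48 FPKM (adjusted p = 0.0104 by limma), and of Acsm2, an acyl-CoA synthetase, from 1577 ± 147 to 571 ± 335 FPKM (limma adjusted p = 0.0336). In contrast, 18 of 19 other tubular injury genes rose (median log2 change 1.90; 17 after scaling), of which Krt20 and Sox9 passed the filter through their adenine values. They were led by Lcn2, a lipocalin, from 6.07 ± 1.67 to 340.3 ± 175 FPKM, Spp1 (osteopontin), from 453 ± 94.9 to 6731 ± 2031 FPKM, and the adhesion molecule Vcam1, from 4.52 ± 0.532 to 77 ± 31.7 FPKM (limma adjusted p = 0.00324, 0.00309 and 0.00309). Heme oxygenase Hmox1, the remaining member of the list, was at 13.2 ± 5.57 and 16.6 ± 2.29 FPKM (limma adjusted p = 0.297) and was called without standard 3 (0.0383). The 9 falls of the proximal tubule list became 3 without standard 1, standard 2, standard 3 or adenine 2, 14 without adenine 3, 4 without a filter, 5 with quantile normalization and 14 with the replicate block and median-of-ratios scaling together. The call of Acsm2 ended without standard 1, 2 or 3 (limma adjusted p = 0.0818, 0.0947 and 0.0984), without adenine 2 (0.0903), with quantile normalization (0.0755) and with no filter (0.0629). In whole kidney, fewer cells of a type and less RNA per cell cannot be told apart.

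Per 1000 FPKM of Lrp2, the gene of the endocytic receptor megalin of the same cells, Havcr1 had 12.3, 9.57 and 8.65 FPKM in standard 1 to 3 and 2469, 3267 and 1376 FPKM in adenine 1 to 3. In adenine libraries Havcr1 thus exceeded Lrp2 itself, and the difference was 222-fold. Against Vcam1 it was 7.51-fold, from 266 to 348 FPKM per 1000 on the standard diet to 1167, 3606 and 3111 in adenine 1 to 3. Against Lcn2 the groups overlapped, at 184, 215 and 346 FPKM per 1000 on the standard and 278, 648 and 1024 on the adenine diet (exact permutation p = 0.2). The 2.38-fold difference of geometric means was thus within the spread between libraries.

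Timd2 was set beside Lrp2 and Cubn, a pair of the 18 proximal tubule genes, and neither ratio could pass a test with this number of samples (exact permutation p = 0.1, adjusted 0.15). Per 1000 FPKM of Lrp2 it had 253, 183 and 195 FPKM in standard 1 to 3 and 517, 484 and 467 FPKM in adenine 1 to 3, a 2.35-fold difference without overlap. Against Cubn, which encodes the megalin partner cubilin, the values were 733, 627 and 653 on the standard and 1513, 1543 and 1433 on the adenine diet, 2.23-fold. The adenine libraries, which differed in Timd2 level, were close to each other in both ratios. Both proximal tubule genes fell by limma (adjusted p = 0.0497 for Lrp2 and 0.041 for Cubn), while Timd2 itself was not called. Neither fall was called without standard 1, 2 or 3 (limma adjusted p = 0.0656, 0.13 and 0.144 for Lrp2, 0.0753, 0.103 and 0.123 for Cubn) or without adenine 1 or 2 (0.0871 and 0.106 for Lrp2, 0.0624 and 0.1 for Cubn).

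The adenine libraries were not ordered alike for the family. Of 4581 genes called higher, 80.3% had their highest value in adenine 1, 14.6% in adenine 2 and 5.06% in adenine 3 (63.3%, 23.1% and 13.6% after median-of-ratios scaling). Havcr1 was highest in adenine 2, also after scaling (107, 247 and 135 in adenine 1 to 3), at 2.04 times the mean of adenine 1 and 3. In 11 of the 4581 genes (0.24%) that ratio was larger. They are Ptprn, Il1f6, Sprr2f, Hcar2, Wnt7a, Il11, Cxcl17, Gm21807, RP23-189P1.2, Slfn4 and Ccl3, with at most 11 FPKM in adenine 2 (Sprr2f), and were looked up after the values of Havcr1 were seen. Among the 18 tubular injury genes that rose, 14 were highest in adenine 1 and 4 (Clu, Spp1, Cxcl1 and Gdf15) in adenine 2. Havcr2 and Timd4 were highest in adenine 1, and Timd2 was lowest there. With 3 libraries per diet these orders are a description and were not tested.

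**Figure D3:**
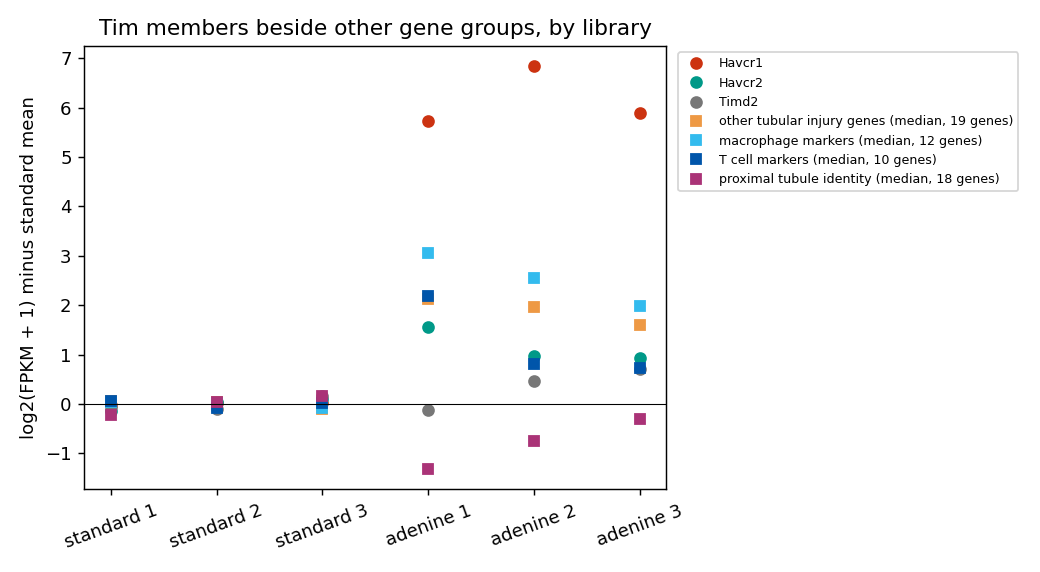
Difference of log2(FPKM + 1) from the standard mean in each library for Havcr1, Havcr2 and Timd2 (circles) and for the median of 4 gene groups (squares). Havcr1 is highest in adenine 2, whereas Havcr2, macrophage and T cell markers are highest and proximal tubule genes lowest in adenine 1.

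Markers of leukocytes that are known to carry Tim-3 were higher on the adenine diet, where 29.7% of all tested genes rose. All 12 macrophage markers rose, and their summed level went from 101 to 126 FPKM on the standard to 714 to 1629 FPKM on the adenine diet. Lyz2 alone gave 38.1 to 58 FPKM of that sum on the standard and 482 to 1175 FPKM on the adenine diet. Of 10 tested T cell markers 6 rose and 4 did not pass (3 rose after scaling, and 1 without standard 1, 2 or 3 or adenine 2), with a summed level over all 12 of 3.6 to 5.54 against 17.2 to 65.3 FPKM. Of 8 tested dendritic cell markers 7 rose (summed level 9.09 to 10.7 against 26.6 to 51.4 FPKM). Of the tested T cell markers 7, of the dendritic cell markers 4 and of the B cell markers 5 passed the filter through their adenine values, so these counts are descriptions. None of the 6 tested B cell markers was called by limma (1, Cd22, at an unadjusted p under 0.05 and called without adenine 3 and with a pseudocount of 0.1), and the sum over all 7 was 67.8 FPKM in adenine 1 against 6.12 and 5.1 in adenine 2 and 3 and 0.906 to 5.48 on the standard diet. Only 1 of 5 NK cell markers (Klrk1) and none of 6 mast cell markers reached the filter, and Klrk1 was not called (limma adjusted p = 0.0679) except without adenine 3 (0.00441). Their summed levels were 1.06 to 1.4 FPKM (NK cell) and 0.19 to 0.503 FPKM (mast cell) on the standard diet, against 1.26 to 5.63 and 1.39 to 2.98 FPKM on the adenine diet, with the mast cell receptor Fcer1a listed at 0 in all 6 libraries.

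Set against these markers, Havcr2 gave different pictures by marker. Per 1000 FPKM of the summed macrophage markers it had 2.41, 3.97 and 5.36 FPKM in standard 1 to 3 and 1.97, 2.05 and 2.43 FPKM in adenine 1 to 3, with an overlap (exact permutation p = 0.2). Lyz2 was the largest part of that sum in every library, so the ratio depends mainly on this marker on the adenine diet. Per 1000 FPKM of T cell markers it had 58 to 131 on the standard and 49.2 to 101 on the adenine diet (exact permutation p = 0.6), and per 1000 FPKM of dendritic cell markers 29.4 to 52 and 49.7 to 65.2 (exact permutation p = 0.3). Against Csf1r alone, the growth factor receptor of macrophages, the groups did not overlap, at 10.6, 17.4 and 21.1 on the standard and 41.6, 27.9 and 28.9 on the adenine diet, a 2.05-fold difference. Which cells the Havcr2 transcripts came from was not tested. Among 8 markers of the resident macrophages known to carry Timd4, 5 were tested and 4 rose, Mrc1, Pf4, F13a1 and Cbr2, while Folr2 was not called and Lyve1, Cd163 and Cd209f lay under the filter. F13a1 passed the filter through its adenine values. The 4 rises became 2 without standard 1, standard 2 or adenine 2. Pf4 and Cbr2 went from 1.22 ± 0.645 to 8.28 ± 4.49 FPKM and from 2.51 ± 0.264 to 4.4 ± 0.509 FPKM. Mrc1, the mannose receptor, rose from 2.03 ± 0.35 to 18.6 ± 6.08 FPKM (adjusted p = 0.00332 by limma). The call of F13a1 ended without standard 1, 2 or 3 or adenine 2 (limma adjusted p = 0.0535, 0.0572, 0.0586 and 0.0538), and that of Cbr2 without standard 1, standard 2 or adenine 2 (0.0519, 0.0596 and 0.0597), under quantile normalization (0.69) and under median-of-ratios scaling (0.0871). The summed level of the 8 was 6.45 to 8.78 FPKM on the standard and 25.9 to 48.7 FPKM on the adenine diet, and the part of these cells in the Timd4 values was not tested.

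Among ligands and surface partners of the Tim proteins, 4 of 7 rose and none fell (median log2 change 0.33, and 3 rises after scaling). Selp and Cd300lb passed the filter through their adenine values only, so 2 of the 4 rises had to be differences and the count supports nothing. Galectin-9 (Lgals9), a ligand of Tim-3, was at 11.5, 12.7 and 12 FPKM in standard 1 to 3, against 36.6, 32 and 19.9 FPKM in adenine 1 to 3, 2.44-fold (limma adjusted p = 0.0108). Selp, which encodes P-selectin, a binding partner of Tim-1, rose from 0.154 ± 0.108 to 2.6 ± 0.909 FPKM, and Cd300lb, a myeloid phosphatidylserine receptor, from 0.0721 ± 0.023 to 2.02 ± 0.773 FPKM (limma adjusted p = 0.00525 and 0.00628). Sema4a, a ligand of Tim-2, was at 42.9 ± 3.55 and 54.1 ± 3.94 FPKM and its call (limma adjusted p = 0.0417) ended after median-of-ratios scaling (0.79), with quantile normalization (0.104), with no variance trend (0.0623), with no filter (0.0512) and without any 1 library except adenine 3 (0.0702 to 0.141). The ferritin heavy chain Fth1, the other Tim-2 ligand, was at 2557 ± 99.8 and 1932 ± 474 FPKM, Ceacam1 at 6.49 ± 1.23 and 5.3 ± 0.665 FPKM, and Hmgb1 at 214 ± 5.88 and 213 ± 36.7 FPKM (limma adjusted p = 0.26, 0.258 and 0.939). Ceacam1 was called as a fall with the replicate block and median-of-ratios scaling together (-0.50, limma adjusted p = 0.0295). Per 1000 FPKM of Lgals9, Havcr2 had 26.3, 37.3 and 44.9 FPKM on the standard and 87.8, 57 and 87 FPKM on the adenine diet, a 2.15-fold difference of geometric means without overlap.

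Inside the cell, 5 of 7 partners of Tim proteins rose and none fell (median log2 change 0.73, 3 rises after scaling, 7 with the replicate block). Over all tested genes 29.7% rose and 6.84% fell. Nr4a1, a nuclear receptor that binds the tail of Kim1, rose from 2.06 ± 0.211 to 8.95 ± 2.28 FPKM, and Lck, the T cell kinase that Tim-3 engages, from 1.23 ± 0.53 to 10.2 ± 8.04 FPKM (limma adjusted p = 0.00443 and 0.0196). Fyn, a kinase, the Tim-3 adaptor Bag6 and the G protein subunit Gna12, which Kim1 is known to bind, had log2 changes of 1.06, 0.40 and 0.42 (limma adjusted p = 0.0197, 0.0217 and 0.029). The subunits Pik3r1 and Pik3r2 of PI3 kinase, at log2 changes of 0.49 and 0.73, did not pass (limma adjusted p = 0.087 and 0.0517), but did with the replicate block (0.015 and 0.0227) and without adenine 3 (0.0223 and 0.0297). Pik3r2 also passed with a pseudocount of 0.1 (0.0486). Leaving out standard 1, 2 or 3 gave 1, 2 or 2 rises in place of 5, and leaving out adenine 1 or 2 gave 3 or 1. After median-of-ratios scaling the calls of Bag6 and Gna12 ended (limma adjusted p = 0.355 and 0.307), and with quantile normalization those of Fyn and Gna12 (0.0504 and 0.0586). Lck was not called without standard 1, standard 2 or adenine 2 (0.0673, 0.0675 and 0.0589), nor Fyn without standard 1, 2 or 3 or adenine 2 (0.0687, 0.0526, 0.0643 and 0.0682). Bag6 was not called without standard 1, standard 3, adenine 1 or adenine 2 (0.0611, 0.0661, 0.0525 and 0.067), nor Gna12 without any of these or standard 2 (0.0538 to 0.0945).

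Kim1 and Tim-3 are cut from the cell surface by the proteases Adam10 and Adam17. Of 5 genes of this machinery 4 rose and 1 fell (median log2 change 0.83, 3 rises and 1 fall after scaling). The shares over all tested genes were 29.7% and 6.84%. Adam17 rose from 13.9 ± 0.876 to 25.8 ± 4.94 FPKM and Adam10 was at 30.9 ± 3.14 and 46.4 ± 8.42 FPKM (limma adjusted p = 0.0108 and 0.0317). Rhbdf2 and Rhbdf1, the iRhom proteins that bring Adam17 to the surface, rose from 4.49 ± 0.714 to 14.5 ± 1.58 FPKM and from 16.1 ± 2.58 to 32.3 ± 2.78 FPKM (limma adjusted p = 0.00332 and 0.0064). Timp3, an inhibitor of these proteases, fell from 511 ± 37.8 to 289 ± 46.2 FPKM (adjusted p = 0.0112 by limma). The call of Adam10 ended after median-of-ratios scaling (0.127), with quantile normalization (0.0634) and without standard 1, 2 or 3 or adenine 1 or 2 (0.0911, 0.0572, 0.0982, 0.0787 and 0.104).

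STAT3, acting with the checkpoint kinase Chk1, is known to drive transcription of the Kim1 gene. All 9 tested genes of the IL-6 family and STAT3 list rose (median log2 change 1.31), against 29.7% of all tested genes. After median-of-ratios scaling 7 of them rose, and Jak1 and Jak2 were not called (limma adjusted p = 0.103 and 0.0676). Neither was called without standard 1, 2 or 3 (0.0701, 0.0618 and 0.0597 for Jak1, 0.0596, 0.0609 and 0.0729 for Jak2) or without adenine 2 (0.0751 and 0.0795). Socs3, a STAT3 target that feeds back on it, was at 1.21, 1.15 and 1.07 FPKM in standard 1 to 3, against 38.1, 29.3 and 18.1 FPKM in adenine 1 to 3. The cytokine Lif rose from 0.12 ± 0.0577 to 5.73 ± 1.56 FPKM and Osmr, the oncostatin M receptor, from 4.34 ± 1.22 to 26.3 ± 5.74 FPKM (limma adjusted p = 0.00295 for Socs3, 0.00296 for Lif and 0.00332 for Osmr). Lif passed the filter through its adenine values, and Il6 and Osm lay under it, at up to 1.1 and 0.676 FPKM. Of the 9 rises 7 were highest in adenine 1 and 2 in adenine 2, where Havcr1 was highest. Among all 4581 genes called higher these shares were 80.3% and 14.6%.

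Most other receptors of dying cells also rose. Of 12 tested phosphatidylserine receptors outside the family 9 rose and 1 fell (8 and 1 after scaling, median log2 change 0.99). Over all tested genes the shares were 29.7% and 6.84%. Of the 9 rises 2, Cd300lf and Itgb3, passed the filter through their adenine values. Axl, a receptor kinase, rose from 19.2 ± 4.64 to 73 ± 22.9 FPKM, the scavenger receptor Stab1 from 8.87 ± 1.3 to 33.4 ± 8.28 FPKM and Lrp1 from 16.6 ± 3.06 to 54.9 ± 13.5 FPKM (limma adjusted p = 0.00674, 0.00412 and 0.00538). Cd36, a lipid scavenger, fell from 240 ± 13.1 to 122 ± 50.2 FPKM (adjusted p = 0.029 by limma), and Mertk and Stab2 did not pass, Mertk at 16.9 ± 1.44 and 17 ± 1.54 FPKM and Stab2 at 0.907 ± 0.753 and 0.311 ± 0.0982 FPKM (limma adjusted p = 0.973 and 0.23). The call of Cd36 ended without standard 1, 2 or 3 or adenine 2 (0.0867, 0.0801, 0.0781 and 0.0922) and with quantile normalization (0.0585), and without a filter it stood at the threshold (0.05). All 8 bridging molecules, which tie phosphatidylserine to such receptors, rose (7 after scaling, without Gas6 at a limma adjusted p of 0.307, which was also not called without standard 1, standard 2 or adenine 2, at 0.0514, 0.0547 and 0.0598). The complement chains C1qa, C1qc and C1qb led, with 9.41-fold, 8.66-fold and 8.32-fold higher means. These are also made by macrophages, whose 12 markers all rose, and the part of macrophages in these lists was not tested. Of 16 engulfment and phagosome genes measured 6 rose and none fell (median log2 change 0.22, close to that of all tested genes; 5 rose and 2 fell after scaling). The rises were led by the phagocyte oxidase subunit Cybb, from 5.02 ± 0.543 to 25.7 ± 13 FPKM, Elmo1, from 1.52 ± 0.153 to 5.55 ± 2.24 FPKM, and the lipid exporter Abca1, from 6.12 ± 0.751 to 15 ± 4.81 FPKM (limma adjusted p = 0.00786, 0.0105 and 0.0149). Abca1 was not called without standard 3 or adenine 2 (0.0545 and 0.0602).

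Of 9 tested co-inhibitory genes that act beside Tim-3, 4 rose and none fell (median log2 change 1.32, 4 rises after scaling), the T cell receptors Lag3, Ctla4 and Pdcd1 (PD-1), and 4632428N05Rik, the gene of VISTA. Of the 9, 5 had a standard mean under 0.5 FPKM and passed the filter through their adenine values, Lag3, Ctla4 and Pdcd1 among them, so the count is a description and supports nothing. 4632428N05Rik, also made by myeloid cells, rose from 3.98 ± 0.64 to 20.7 ± 9.13 FPKM (limma adjusted p = 0.00685). Lag3 was at 0.345, 0.593 and 0.104 FPKM in standard 1 to 3, against 4.95, 1.77 and 1.84 FPKM in adenine 1 to 3 (limma adjusted p = 0.0194). As for Havcr2 and the T cell markers, adenine 1 was the highest library of all 4. The same held for 80.3% of the 4581 genes called higher, so this order is not particular to these genes. Entpd1 was at 4.75, 5.35 and 264 FPKM in standard 1 to 3, against 122, 11.4 and 102 FPKM in adenine 1 to 3, an uneven pattern with no call (limma adjusted p = 0.534). Leaving out standard 1, 2 or 3 gave 1, 2 or 1 rises in place of 4, and leaving out adenine 2 or 3 gave 2 or 8. Lag3 was not called without standard 1 or 3 (limma adjusted p = 0.0617 and 0.0679). Ctla4 and Pdcd1 (limma adjusted p = 0.0273 and 0.0447) were not called without standard 1, 2 or 3 (0.0821, 0.0748 and 0.0717 for Ctla4, 0.108, 0.111 and 0.111 for Pdcd1) or without adenine 2 (0.066 and 0.0618), nor Pdcd1 with quantile normalization or no filter (0.0806 and 0.0693).

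**Figure D4:**
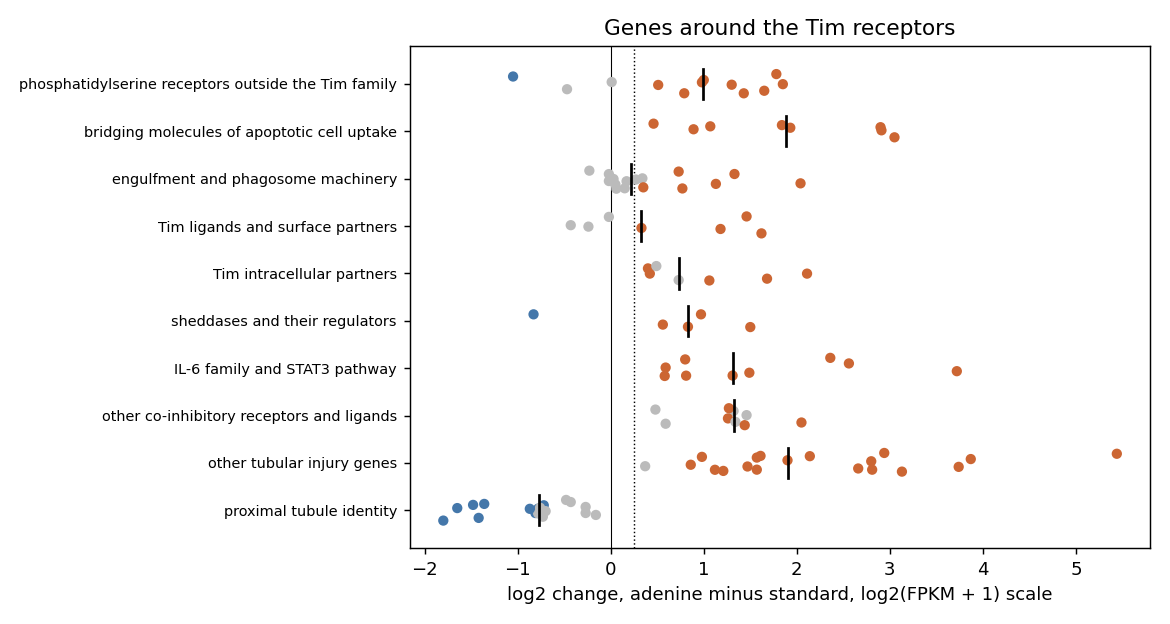
Log2 change (adenine minus standard) of each tested gene of 10 lists around the Tim receptors, with called rises in orange, called falls in blue, uncalled genes in grey and list medians as black bars. The dotted line is the median of all tested genes, 0.25; injury genes and bridging molecules lie mostly right of it and proximal tubule genes left.

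Genes of the same stretch of chromosome 11 were read beside the family. Of 27 other entries considered within 500 kb of the members, 10 were listed at 0 in every library and 7 were tested. Of these 2 rose, 2 fell and 3 were not called, against 29.7% rises and 6.84% falls over all tested genes, and with so few genes nothing particular to the stretch can be read from the counts. The metalloprotease gene Adam19 rose from 0.831 ± 0.193 to 5.03 ± 2.2 FPKM (limma adjusted p = 0.00812). Gm16033, the other rise, passed the filter through its adenine values and overlaps Adam19 on the opposite strand, and the reads of the pair cannot be told apart without strand. Cyfip2, an actin regulator, fell from 67.5 ± 5.77 to 49.5 ± 2.88 FPKM and Fndc9 from 2.22 ± 0.433 to 1.22 ± 0.23 FPKM (limma adjusted p = 0.017 and 0.0444). Fndc9 lies inside Cyfip2 on the opposite strand, so the same limit holds for that pair. Gm12174, whose start lies at -7.3 kb from that of Havcr1, nearer than any other tested neighbour, was at 0.955 ± 0.256 and 0.906 ± 0.752 FPKM (limma adjusted p = 0.79). The calls of Cyfip2 and Fndc9 each ended without some single libraries. For Cyfip2 these were standard 1, standard 2 and adenine 2 (0.0574, 0.0595 and 0.0653). For Fndc9 they were all except standard 3 (0.0749 to 0.123), and no filter gave 0.0675. Med7 (limma adjusted p = 0.157) was called as a fall under quantile normalization and under median-of-ratios scaling (0.0119 and 0.0189).

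**Figure D5:**
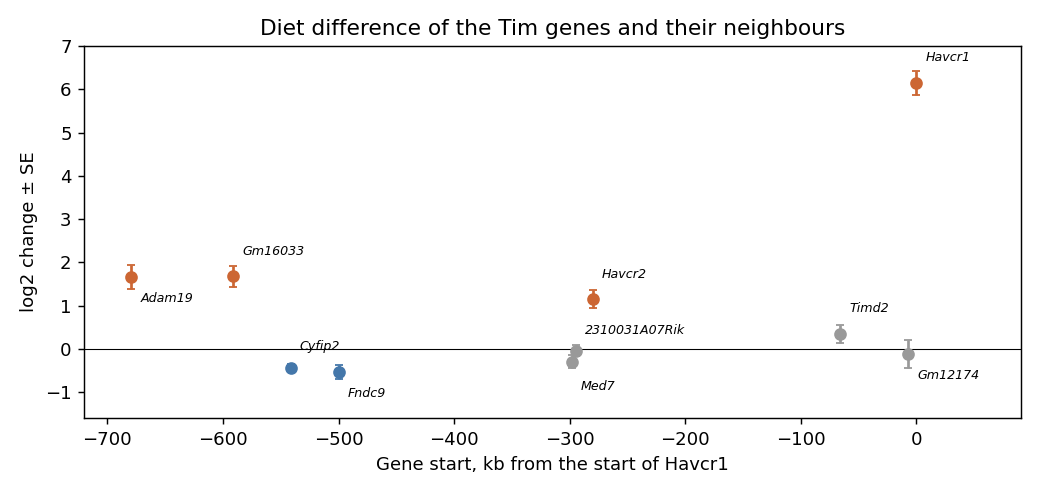
Log2 change ± SE of tested Tim genes and of the 7 tested genes considered within 500 kb, by distance of the gene start from that of Havcr1 (kb), with called rises in orange, called falls in blue and uncalled genes in grey. Havcr1, at 6.15, stands alone at the right end, with Timd2 and Gm12174 uncalled beside it.

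Across the whole table, the genes most like Havcr1 were sought by the root mean square difference between log2(FPKM + 1) profiles, each centred on its standard mean, over the 6 libraries and among genes reaching a mean of 5 FPKM. The 5 nearest were Lcn2, the immunoglobulin segment Ighv5-16, the protease inhibitor Timp1, the matrix protease Mmp7 and the collagen gene Col3a1, at differences of 0.778, 0.834, 0.837, 1.1 and 1.3 log2 units. All 5 had a smaller log2 change than Havcr1, from 4.42 to 5.44, although Mmp7, at 0.154 ± 0.153 FPKM on the standard diet, had a larger ratio of means (224-fold). For Havcr2 the 5 nearest were Arrdc4, Shisa3, Gnb4, Procr and 1700017B05Rik, at 0.014 to 0.097 log2 units. Their means were 2.44-fold to 3.36-fold higher on the adenine diet, against 5.15-fold for Havcr2, so the nearness holds on the log2(FPKM + 1) scale. Each had its highest value in adenine 1, which follows from a choice by profile. For Timd2 they were Gdpd3, Syne4, Acsl3, Hoxb5os and Ren1 at 0.118 to 0.144 log2 units, none of which was called. Syne4 and Ren1, like Timd2, were called without adenine 1 (limma adjusted p = 0.0453 and 0.0303), a likeness that a choice by profile favours.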

How the data were processed

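RNA of whole kidney was sequenced in 3 samples from a standard and 3 from an adenine-enriched diet, in paired 100-base reads per the labels' protocols. The authors deposited 1 FPKM value per gene and sample. The submitters' processing notes name bcl2fastq 2.0, TopHat, Cufflinks 2.1.1 and the builds mm10 and GRCm38; for the gene annotation, the TopHat version and the use of strand, the entry is: not given in the sources used here. A second table with 6 columns of samples outside the sample list was not used. Columns were matched to samples by their names.

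Differences were tested with limma 3.58.1 in R 4.3.3 (a trend in the variance, 6 samples) on log2(FPKM + 1), keeping genes whose average over the libraries reached 0.5 FPKM, with Benjamini-Hochberg adjustment over all tested genes and a threshold of 0.05. The fit was tested on simulated data. Ratios within libraries were compared by exact permutation tests in scipy 1.17.1. Depth was estimated from the steps of values up to 0.3 FPKM, as the depth that brought the lowest of them closest to whole fragments. Of the 238 to 281 values per library at about 1 to 3 fragments, 68.5% to 77.6% were then whole fragments to within 0.15. This choice of depth itself raises that share. The depth is an estimate, so no count test was run. Alternatives were pseudocounts of 0.1 and 0.5, no filter, no variance trend, median-of-ratios scaling, quantile normalization, a block for the replicate number, the block with that scaling, and leaving out each library.

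Named genes were the members, tested neighbours within 500 kb, the 3 largest rises and 2 largest falls of each of 19 lists (in lists of 7 or fewer members, all of them) and the 5 genes most like a member in pattern. Genes outside that rule (Lrp2, Cubn, Cbr2, Ctla4, Gas6, Jak1, Jak2, Hmox1, Mertk, Stab2, Entpd1, Csf1r, single markers and the genes with the largest values in adenine 2) were named after their values were seen. The members and lists were chosen with earlier results of these data known. Of 188 list entries 185 were in the table. Some genes of the lists and the neighbourhood are not reported here and were left out of the counts over them. Samples of the same number deviated together (correlations of 0.257, 0.143 and 0.181, against -0.187 to 0.0376 for other pairs), but no label states a pairing. The main fit and the permutation tests did not pair the samples, and the block for the replicate number was an alternative only.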

Additional observations from a re-analysis of the deposited data

How the results depend on the processing

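Of 1386 alternative values for 99 named genes other than the Tim genes, 1196 kept their direction and their side of the threshold, 138 lost a call, 17 gained one and 35 changed sign. Havcr1 and Havcr2 kept their call and direction under all alternatives listed in the methods. Timd2 was called without adenine 1 (0.59; range without single libraries 0.17 to 0.59) and Timd4 without adenine 3 (0.23; range 0.12 to 0.23). The replicate block changed the call of Pik3r1 and Pik3r2 and of no other named gene; it gave 5957 changed genes against 5637, and log2 changes of 6.15 for Havcr1 and 1.15 for Havcr2. Leaving out single libraries gave 2053 to 7078 changed genes, 1 to 7 intracellular partners, 1 to 8 co-inhibitory genes and 3 to 14 proximal tubule genes. Intracellular partners numbered 3 after median-of-ratios scaling, with quantile normalization and with the block and that scaling; proximal tubule genes numbered 4 with no filter, 5 with quantile normalization and 14 with the block and scaling. With 3 samples per diet and estimated depths of 17.2 to 23.5 M fragments, levels near 0.1 FPKM rest on few fragments. The cause of these changes was not tested.

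These log2 changes, none of them called, changed sign. After median-of-ratios scaling, with and without the block, they were -0.14 for Slc12a3, -0.01 for Adipoq, -0.0021 for Gdpd3, -0.08 for Syne4, -0.06 for Hoxb5os, -0.11 for Ren1 and -0.28 for Mertk. With quantile normalization they were 0.15 for Hmgb1, -0.28 for Star, -0.24 for Adipoq, -0.06 for Plin1, -0.21 for Gdpd3, -0.06 for Acsl3, -0.24 for Hoxb5os and -0.28 for Mertk. Leaving out single libraries gave ranges of log2 change that crossed 0, for Hmgb1 -0.13 to 0.12, Slc12a3 -0.02 to 0.28, Adipoq -0.48 to 0.82, Plin1 -0.18 to 0.93, 2310031A07Rik -0.13 to 0.05, Gm12174 -0.38 to 0.24 and Mertk -0.06 to 0.05.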
